A study of Mus musculus with 3 samples.

Results

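The Pi16 and Dpp4 positive fibro-adipogenic progenitors (FAPs) of regenerating muscle were 612 of the 38748 cell barcodes of a single-cell RNA sequencing series, and are called Pi16/Dpp4 FAPs here. They were chosen from unique molecular identifiers (UMIs), the tags that count single RNA molecules. A cell had to hold at least 500 detected genes and under 10% mitochondrial UMIs, at least 2 UMIs of Pdgfra, and none of Ptprc, Pecam1, Cdh15 or Tnmd, which mark immune, endothelial, muscle stem and tendon cells. Of the 2896 cells that passed this Pdgfra gate, 2512 held fewer than 5 UMIs over the cell cycle genes Mki67, Top2a, Cdk1, Birc5 and Cenpf. The 612 of these with at least 2 UMIs of Pi16 and Dpp4 together are the Pi16/Dpp4 FAPs, and the remaining 1900 are the cells they were compared with. All cells came from tibialis anterior muscles of C57/BL6J mice, injured by barium chloride (BaCl2) and collected 4 days later. The young PBS group was 3 to 4 months old and the old PBS group 24 to 26 months old, both injected with saline (PBS). The old rMETRNL group was of the same age as old PBS and was injected repeatedly with recombinant meteorin-like protein (rMETRNL). Each group was 1 library of cells pooled from 3 muscle samples, so differences between groups describe these libraries and have no test.

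FAPs are the Pdgfra-expressing stromal cells of muscle, which lie between the fibres and around vessels. They multiply after injury, supply matrix and growth factors to muscle stem cells, and can become fibroblasts or fat cells. Fibroblasts that express Pi16, a secreted peptidase inhibitor, and Dpp4, a membrane peptidase also known as CD26, are known from the adventitia and fascia of many organs, where they are regarded as a progenitor-like pool. Pi16 lies at chr17:29317680-29330593 and Dpp4 at chr2:62330073-62412231 (GRCm38).

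The 3 libraries held 12168, 12568 and 14012 barcodes, given like all values below in the order young PBS, old PBS, old rMETRNL, of which 11403, 11058 and 12786 passed the cell filter. Their total depth was 179295668 to 228966697 UMIs. Pairs of libraries shared 58 to 80 barcodes. Median UMIs per cell were 22514.5, 19861 and 22108 for the Pi16/Dpp4 FAPs and 25909, 22118 and 24328.5 for the other non-cycling cells, so the chosen cells were the shallower in each library. No doublets were removed from the main values. The doublet caller's own threshold called 0 cells, and 6, 13 and 7 of the Pi16/Dpp4 FAPs were among the highest-scoring barcodes left out in an alternative.

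The gate genes describe the choice and were not tested. Pi16 stood at 946, 759 and 723 CPM (UMIs of the gene per 1000000 UMIs of the summed cells) in the Pi16/Dpp4 FAPs and at 3.87, 7.20 and 5.53 in the other cells. Dpp4 stood at 118, 91.7 and 143 and at 1.41, 1.34 and 1.51. The sum of both genes had a median of 9, 6 and 10 UMIs per cell and reached 262, 162 and 167. Just inside the limit, 28, 47 and 34 cells held exactly 2 UMIs. Just outside it, 101, 102 and 107 cells held 1 UMI, and 624, 437 and 529 held none. RNA from broken cells can give UMIs to cells that do not express a gene, so the same limit was read in other cell types. Among muscle stem cells gated on Cdh15, 1 of 345, 0 of 136 and 1 of 308 cells held at least 2 UMIs of the pair, at median depths of 34620, 29897 and 31808 UMIs. A floor of 3 counts on the 0 of 136 allows a share of up to 2.21%, and its exact 95% limit was 2.68%. Among macrophages gated on Ptprc and Adgre1 the shares were 1.88, 0.850 and 1.29%, at median depths of 15327, 15995 and 15824 UMIs. In young PBS 99 macrophages held at least 2 UMIs of the pair but only 81 any Pi16, so some passed on Dpp4 alone. Whether these shares came from free RNA or from Dpp4 expressed by such cells was not tested.

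Sema3c and Cd55, the markers of this cell type that the gate did not use, were both high in the chosen cells. Sema3c, a secreted semaphorin at chr5:17574281-17730268, stood at 328, 378 and 488 CPM against 17.0, 23.2 and 22.1 in the other cells (log2 fold change 4.28 ± 0.09, edgeR adjusted p = 1.44e-08). Cd55, which protects cells from complement and lies at chr1:130439027-130462744, stood at 176, 222 and 272 against 12.7, 25.9 and 21.6 (log2 fold change 3.53 ± 0.12, edgeR adjusted p = 2.52e-07). The groups of sums did not overlap for either gene, the lowest sum of the Pi16/Dpp4 FAPs lying above the highest of the other cells. The share of all genes with such sums was not counted, so a lack of overlap, here and below, is a description only. After thinning each cell to 5000 UMIs, Sema3c was detected in 55.8, 50 and 67.0% of the Pi16/Dpp4 FAPs and 7.05, 8.95 and 8.06% of the other cells. Without thinning the shares were 78.8, 71.2 and 84.5% and 21.0, 22.0 and 22.2%. These tests, used throughout for this comparison, were edgeR's quasi-likelihood test on UMIs summed per library and cell class. The 3 libraries served as pairs, errors are standard errors, and p-values were adjusted by Benjamini-Hochberg over the 12748 genes tested. They measure how alike the contrast was in libraries of different age and treatment. The gate read Pi16 and Dpp4 in the very cells compared, so the tests say which other transcripts went with them.

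The first question was how large a share of the FAPs these cells formed in each library. They were 160 of 885 non-cycling Pdgfra-gated cells in young PBS (18.1%, exact 95% interval 15.6 to 20.8), 217 of 756 in old PBS (28.7%, 25.5 to 32.1) and 235 of 871 in old rMETRNL (27.0%, 24.1 to 30.1). The share in old PBS was 1.59 times that in young PBS (1.29 to 1.96). The share in old rMETRNL was 1.49 times that in young PBS (1.22 to 1.84) and 0.940 times that in old PBS (0.778 to 1.14). With this gate the intervals of both old libraries over the young one lay above 1, while that between the old libraries spanned 1. Counting intervals hold no spread between mice. Of all kept cells the Pi16/Dpp4 FAPs formed 1.40, 1.96 and 1.84%. With each cell thinned to 5000 UMIs, which left out 6, 30 and 30 shallower cells, the shares were 10.1, 16.7 and 18.4%. Cells with at least 1 UMI of each gene formed 9.94, 13.2 and 16.6%. Their ratios were 1.33 for old PBS over young PBS (0.989 to 1.79) and 1.26 for old rMETRNL over old PBS (0.969 to 1.64). Both of these intervals spanned 1, while that of old rMETRNL over young PBS, 1.67 (1.28 to 2.21), lay above 1. More cells of this type and fewer other FAPs cannot be told apart in a share.

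**Figure D1:**
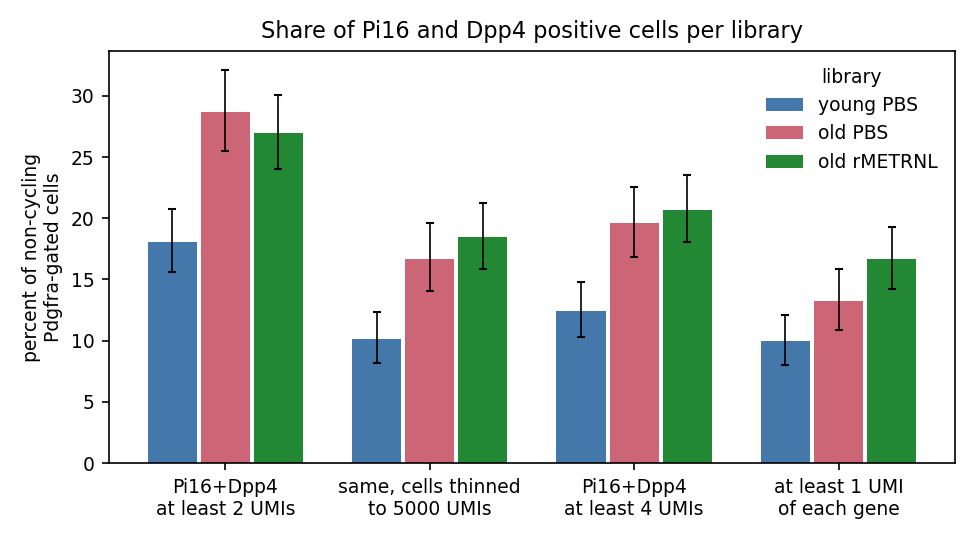
Share of Pi16 and Dpp4 positive cells among non-cycling Pdgfra-gated cells (percent, y axis) in the 3 libraries under 4 definitions (x axis). Bars are shares with exact 95% binomial intervals, which cover counting error only. Young PBS is lowest under each definition, from 9.94 to 18.1%.

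The adventitial genes rose almost as a block in the Pi16/Dpp4 FAPs. Of all 12748 genes tested, 1422 were higher (11.2%) and 1136 lower (8.91%). Without the old rMETRNL library the counts were 680 and 421. Of the 33 tested genes (of 35) on a list for adventitial, Pi16/Dpp4-type fibroblasts, 32 were higher and 1 was lower, with a median log2 fold change of 2.38 against -0.02 over all genes. The list was written with this cell type in mind and is no independent sign of direction. Some of its genes are also on lists counted below, so those counts are not independent of it. They were Fbn1, Mfap5, Efemp1 and Emilin2 (elastic fibre), Ugdh (hyaluronan), Wnt2 (Wnt) and Igfbp6 (growth factor). The others were Bmp7 (BMP and adipogenic), Cd55 (complement), Aldh1a3 (retinoid) and Il33 (cytokine). Wnt2, a Wnt ligand, stood at 32.2, 20.5 and 38.5 CPM against 0.992, 0.586 and 0.790 (log2 fold change 5.26 ± 0.18, edgeR adjusted p = 2.52e-07). Efhd1, a mitochondrial calcium-binding protein, stood at 74.2, 74.7 and 102 against 1.83, 5.52 and 3.49 (log2 fold change 4.63 ± 0.22, edgeR adjusted p = 1.47e-06). Ackr3, a scavenger receptor of Cxcl12, stood at 222, 177 and 246 against 25.3, 27.8 and 26.3 (log2 fold change 3.04 ± 0.11, edgeR adjusted p = 2.52e-07). In each of these genes the 3 sums of the Pi16/Dpp4 FAPs lay above all 3 sums of the other cells. Tek, the angiopoietin receptor, rose by 3.11 on the log2 scale, Procr, the protein C receptor, by 2.38, and Aldh1a3, which makes retinoic acid, by 2.90. The exception was Il33, an alarmin cytokine, at 181, 443 and 294 against 236, 548 and 346 (log2 fold change -0.28 ± 0.06, edgeR adjusted p = 0.0102). This call was lost in DESeq2 (adjusted p = 0.0719).

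The levels followed the gate sum within the gated cells, as a description, since the sum chose the cells. In young PBS, Sema3c stood at 15.8, 24.4, 76.8, 213 and 562 CPM in cells with 0, 1, 2 to 3, 4 to 9 and 10 or more UMIs of Pi16 and Dpp4. In old PBS the values were 19.6, 40.7, 78.9, 141 and 778, and in old rMETRNL 18.2, 40.2, 97.0, 325 and 735. Sema3c was thus higher in each step in all 3 libraries, and the cells just inside the limit lay nearer to the other cells than to those with 10 or more UMIs. Acta2, smooth muscle actin of contractile fibroblasts, was lowest at 10 or more UMIs, with 136, 138, 79.1, 16.8 and 10.1 CPM over the same steps in young PBS. The cells with 10 or more UMIs were not the deepest, with median depths of 20837.5, 18919 and 22077 UMIs against 25827.5, 22639 and 24286 in cells with 0.

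**Figure D2:**
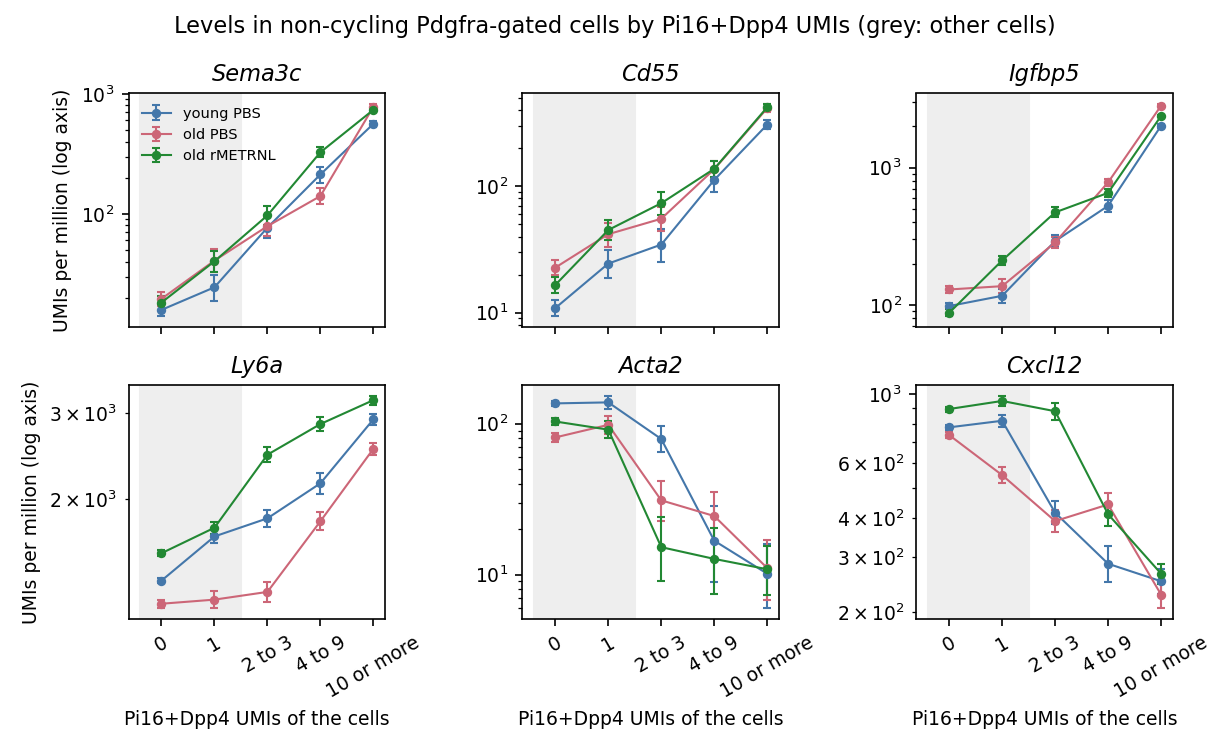
Levels of 6 genes (CPM, log axes) in non-cycling Pdgfra-gated cells grouped by their Pi16 and Dpp4 UMIs (x axis), 1 line per library, with exact 95% Poisson intervals of the counts. Grey marks cells outside the gate. Sema3c, Cd55, Igfbp5 and Ly6a are highest at 10 or more UMIs and Acta2 and Cxcl12 lowest, in each library.

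Krtdap and Dmkn, secreted proteins of differentiating keratinocytes, had almost all their UMIs in the Pi16/Dpp4 FAPs among the cells compared. Krtdap counted 430 UMIs in the 612 Pi16/Dpp4 FAPs and 4 in the 1900 other cells, a ratio of CPM of 365 (exact 95% interval 142 to 1346). Dmkn counted 682 UMIs against 19, a ratio of 122 (77.4 to 204), and stood at 29.8, 22.1 and 88.4 CPM against 0.0522, 0.502 and 0.790. Both genes could meet the count filter through the Pi16/Dpp4 FAPs alone, so no call is read from them. Bmp3, a BMP family ligand, stood at 9.07, 7.58 and 9.26 against 0.313, 0.0837 and 0. Itgb7, an integrin chain, stood at 10.6, 5.35 and 18.9 against 0.366, 0.502 and 0.527. Both were likewise near 0 in the other cells, so no fold or call is read from them. Smpd3, a sphingomyelinase, and Car8, a carbonic anhydrase relative, rose by 4.63 and 4.59 on the log2 scale. Cmah, a sialic acid hydroxylase, Prrt4, a proline-rich transmembrane protein, Mgll, a monoacylglycerol lipase, and Gap43, a growth cone protein, rose by 3.64 to 4.18. Igfbp5, a binding protein of insulin-like growth factors, stood at 1136, 1444 and 1518 CPM against 101, 131 and 109 (log2 fold change 3.61 ± 0.08, edgeR adjusted p = 1.44e-08). These genes were picked for high fold changes in the same direction in all 3 libraries. That their sums did not overlap between the classes is no further sign.

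Krtdap and Dmkn are neighbours, and the third gene of the same stretch was also higher. Sbsn, suprabasin, another secreted keratinocyte protein, lies at chr7:30751471-30756134, Dmkn at chr7:30763756-30781063 and Krtdap at chr7:30787896-30791097, all on the plus strand (GENCODE M21, GRCm38). Sbsn stood at 155, 81.0 and 213 CPM against 17.1, 13.6 and 20.8 (log2 fold change 3.1 ± 0.13, edgeR adjusted p = 8.14e-07). Sbsn was picked out after the values of its neighbours were seen. The RefSeq promoters (GRCm38.p6, 250 bases before to 50 after a start) are shown because these 3 genes were high together. Capitals mark TGAGTCA, the letters of the AP-1 motif, searched on both strands (TGACTCA on the other) and chosen after reading these promoters.
Sbsn, chr7:30751221-30751520, plus strand: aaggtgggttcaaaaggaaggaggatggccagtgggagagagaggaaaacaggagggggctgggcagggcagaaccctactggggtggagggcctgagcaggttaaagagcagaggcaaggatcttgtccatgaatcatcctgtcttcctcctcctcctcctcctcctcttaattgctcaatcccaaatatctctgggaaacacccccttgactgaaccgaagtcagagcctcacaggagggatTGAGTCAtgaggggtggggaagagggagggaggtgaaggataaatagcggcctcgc
Dmkn, chr7:30763506-30763805, plus strand: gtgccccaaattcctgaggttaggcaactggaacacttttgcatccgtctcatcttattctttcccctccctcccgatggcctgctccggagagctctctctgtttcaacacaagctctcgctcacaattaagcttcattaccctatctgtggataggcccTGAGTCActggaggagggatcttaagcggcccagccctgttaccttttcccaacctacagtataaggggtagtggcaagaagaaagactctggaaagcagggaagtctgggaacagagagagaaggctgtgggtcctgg
Dmkn, second start, chr7:30776155-30776454, plus strand: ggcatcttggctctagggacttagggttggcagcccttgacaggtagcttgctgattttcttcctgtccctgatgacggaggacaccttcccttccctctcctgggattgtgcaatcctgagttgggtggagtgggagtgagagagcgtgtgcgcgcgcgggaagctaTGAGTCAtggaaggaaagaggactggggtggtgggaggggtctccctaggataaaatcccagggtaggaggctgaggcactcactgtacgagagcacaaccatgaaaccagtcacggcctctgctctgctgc
Krtdap, chr7:30787655-30787954, plus strand: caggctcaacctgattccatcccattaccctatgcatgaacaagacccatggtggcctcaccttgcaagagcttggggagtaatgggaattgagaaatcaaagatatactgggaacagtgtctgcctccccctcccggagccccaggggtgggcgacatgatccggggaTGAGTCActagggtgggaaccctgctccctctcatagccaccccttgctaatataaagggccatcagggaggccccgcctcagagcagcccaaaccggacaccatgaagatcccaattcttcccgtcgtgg
The 5 promoters listed for the 3 genes held 4 sites of the motif, since 2 windows of Dmkn overlap and share a site. It began 6 bases before the start in Sbsn, 89 (91 in the overlapping window) and 82 in Dmkn and 81 in Krtdap. Of all 32851 promoters of this length, 1709 held it (5.20%). Of the 15 genes named as most raised, 11 had a promoter in the table and 2 of these held the motif, Dmkn and Krtdap. A match of letters is no evidence of binding.

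**Figure D3:**
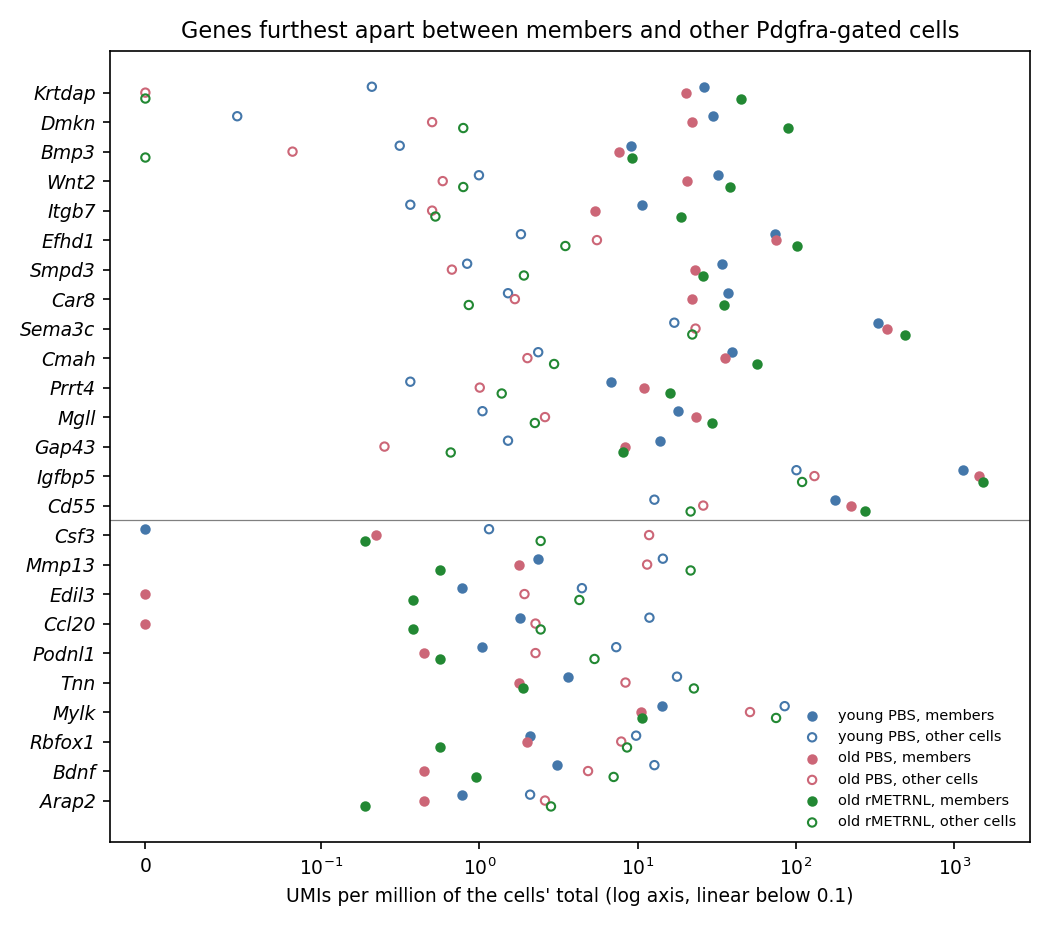
Levels (CPM, x axis, log scale that is linear below 0.1) of the 15 genes most raised and the 10 most lowered in Pi16/Dpp4 FAPs (members, filled) against other Pdgfra-gated cells (open), 1 colour per library. Filled points lie to the right of the open points of the same library above the grey line and to the left below it.

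Genes of activated and contractile fibroblasts were mostly lower. Of 20 tested genes of injury-activated FAPs, 12 were lower and 1 higher, with a median log2 fold change of -0.59. Acta2 stood at 34.7, 21.2 and 12.3 CPM against 136, 83.9 and 101 (log2 fold change -2.27 ± 0.17, edgeR adjusted p = 2.33e-05). Mylk, the kinase that sets off smooth muscle contraction, stood at 14.3, 10.5 and 10.6 against 84.8, 51.2 and 74.8 (log2 fold change -2.56 ± 0.12, edgeR adjusted p = 1.23e-06). Ptn, the growth factor pleiotrophin, stood at 188, 53.1 and 87.1 against 468, 225 and 220.2 (log2 fold change -1.53 ± 0.13, edgeR adjusted p = 5.39e-05). The sums of the Pi16/Dpp4 FAPs lay below all sums of the other cells for these 3 genes. The one list gene that was higher was Cthrc1, a secreted collagen-induced protein, at 735, 466 and 481 against 461, 276 and 333 (log2 fold change 0.68 ± 0.06, edgeR adjusted p = 0.000108). Postn, periostin, at 3803, 3295 and 1856 against 3577, 3232 and 2764, was not called (log2 fold change -0.13 ± 0.11, edgeR adjusted p = 0.458). Tnc, the matrix protein tenascin C, was lower (log2 fold change -1.27 ± 0.33, edgeR adjusted p = 0.025), a call lost in DESeq2 (adjusted p = 0.241). The 10 most lowered genes also held Csf3 and Ccl20, which draw neutrophils and lymphocytes, the collagenase Mmp13, the matrix proteins Edil3, Podnl1 and Tnn, the neurotrophin Bdnf, Rbfox1 and Arap2. All of these stood at 3.63 CPM or less in each sum of the Pi16/Dpp4 FAPs. They could meet the count filter through the other cells alone, so neither a fold nor a call is read from them. Csf3 stood at 0, 0.223 and 0.189 CPM in the Pi16/Dpp4 FAPs against 1.15, 11.8 and 2.44.

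Matrix genes divided by kind. Of 20 collagen chain genes, 10 were lower and 3 higher, among the latter Col14a1, a fibril-associated collagen, at 919, 738 and 790.1 CPM against 440.1, 388 and 450.2 (log2 fold change 0.96 ± 0.07, edgeR adjusted p = 1.2e-05). Col1a1, the main fibrillar chain, was not called, at 12206, 9349 and 8680.3 against 11528, 9799.6 and 9721 (log2 fold change -0.03 ± 0.05, edgeR adjusted p = 0.765), while Col12a1, a collagen of tense tissue, was lower at 164, 99.0 and 88.0 against 242, 154 and 199 (log2 fold change -0.77 ± 0.11, edgeR adjusted p = 0.0012). Of 20 elastic fibre genes, 10 were higher and 3 lower, the former including Fbn1, Mfap5, Efemp1 and Emilin2 of the adventitial list. Fbn1, the main microfibril protein, stood at 2937, 2760.0 and 3781 against 1279, 1491 and 1589 (log2 fold change 1.14 ± 0.07, edgeR adjusted p = 6.21e-06). Ltbp2, a latent TGF-beta binding protein of elastic tissue, went the other way at 63.3, 55.5 and 12.3 against 144, 129.5 and 133 (log2 fold change -1.75 ± 0.32, edgeR adjusted p = 0.00426; DESeq2 adjusted p = 0.0559). Of 20 proteoglycan and hyaluronan genes, 10 were higher and 3 lower. Ugdh, which makes the sugar precursor of hyaluronan, stood at 982, 1024 and 1149 against 297, 594 and 439 (log2 fold change 1.32 ± 0.14, edgeR adjusted p = 0.000199). Of 15 basement membrane genes, 8 were higher and 2 lower. Among 22 matrix proteases and inhibitors, 7 rose and 7 fell, with Adamts5, an aggrecan-cutting protease, raised (log2 fold change 2.08 ± 0.11, edgeR adjusted p = 2.9e-06) and Mmp9, a gelatinase, lowered (log2 fold change -2.05 ± 0.19, edgeR adjusted p = 9.02e-05). Fn1, fibronectin, stood at 5604, 4593 and 5372 against 2566, 3019 and 3332 (log2 fold change 0.83 ± 0.09, edgeR adjusted p = 0.000195).

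Secreted signals, their antagonists and their receptors moved in both directions. Of 17 Wnt pathway genes, 7 were higher and 3 lower. The ligand Wnt2 (above) and the antagonists Sfrp4 (log2 fold change 2.32 ± 0.17, edgeR adjusted p = 1.72e-05) and Dkk2 (log2 fold change 1.78 ± 0.27, edgeR adjusted p = 0.00152) were higher, whereas the antagonists Sfrp1 (log2 fold change -1.05 ± 0.13, edgeR adjusted p = 0.000447) and Sfrp2 (log2 fold change -1.36 ± 0.08, edgeR adjusted p = 4.82e-06) were lower. Of 23 BMP and TGF-beta genes, 9 were higher and 3 lower. The ligand Bmp6 stood at 14.3, 14.3 and 20.6 CPM against 1.72, 1.42 and 2.17 (log2 fold change 3.21 ± 0.19, edgeR adjusted p = 4.99e-06), and Tgfb3, another ligand, was lower (log2 fold change -0.71 ± 0.12, edgeR adjusted p = 0.00241). Of 26 growth factor genes, 9 were higher and 7 lower. Pdgfd, a ligand of Pdgfrb, stood at 14.5, 5.58 and 13.0 against 1.72, 1.09 and 0.987 (log2 fold change 3.14 ± 0.27, edgeR adjusted p = 5.97e-05), and Pdgfrb itself was lower at 95.7, 128 and 82.4 against 178, 180.0 and 150.3 (log2 fold change -0.73 ± 0.09, edgeR adjusted p = 0.000436). Metrnl, the gene of the protein injected in this study, stood at 148, 134 and 176 in the Pi16/Dpp4 FAPs and 62.8, 85.5 and 82.3 in the other cells (log2 fold change 1.02 ± 0.10, edgeR adjusted p = 0.000158), and its sums did not overlap between the classes.

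Chemokine genes were more often lower than higher, and complement genes more often higher than lower. Of 24 chemokine and cytokine genes, 2 were higher and 9 lower. The 2 were the eosinophil and monocyte attractants Ccl11 (log2 fold change 0.59 ± 0.06, edgeR adjusted p = 0.000204) and Ccl8 (log2 fold change 1.09 ± 0.07, edgeR adjusted p = 5.75e-06). Cxcl12, which retains blood and progenitor cells, stood at 314, 339 and 441 CPM against 787, 707 and 905 (log2 fold change -1.12 ± 0.07, edgeR adjusted p = 6.21e-06), so that the ligand was lower and its scavenger Ackr3 higher in the same cells. Of 17 complement genes, 8 were higher and 2 lower, with C3, the central component, at 842, 931 and 841 against 268, 509.7 and 403 (log2 fold change 1.22 ± 0.12, edgeR adjusted p = 0.000159). Of 22 interferon-stimulated genes, 4 were higher and 4 lower. The TNF and NF-kappaB list had 2 of 20 genes higher and 4 lower, and the apoptosis list 1 of 20 higher and 2 lower. Over all genes tested 11.2% were higher and 8.91% lower, so the few apoptosis calls are not read as a result.

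Progenitor and lineage genes gave a mixed picture. Ly6a, the gene of Sca1 by which FAPs are sorted, stood at 2391, 1928 and 2936 CPM against 1406, 1226 and 1585 (log2 fold change 0.79 ± 0.06, edgeR adjusted p = 1.38e-05), and Cd34, another progenitor surface protein, at 544, 619 and 699.6 against 118, 213 and 188 (log2 fold change 1.90 ± 0.11, edgeR adjusted p = 4.66e-06). Of 23 quiescence and stem cell genes, 8 were higher and 4 lower, and the blockers of cyclin kinases among them went both ways. Cdkn1a (log2 fold change 0.70 ± 0.13, edgeR adjusted p = 0.00519), Cdkn1b (log2 fold change 0.47 ± 0.07, edgeR adjusted p = 0.00212) and Cdkn1c (log2 fold change 1.37 ± 0.10, edgeR adjusted p = 1.33e-05) were higher. Cdkn2a stood at 1.04, 0.223 and 0.756 CPM against 1.62, 3.93 and 2.76 and was lower (log2 fold change -2.0 ± 0.53, edgeR adjusted p = 0.0262), as was Cdkn2b at 0.519, 1.12 and 1.13 against 3.45, 3.01 and 3.03 (log2 fold change -1.70 ± 0.38, edgeR adjusted p = 0.0123). Both of these calls rest on few UMIs and were lost in DESeq2 (adjusted p = 0.102 and 0.0811). Of 19 cell cycle genes that the gate did not use, none was higher and 2 were lower, against 8.91% lower over all genes. Both classes had been limited to few cell cycle UMIs, so these counts say nothing of division. The adipogenic list had 5 of 17 genes higher and 4 lower. Klf4, a transcription factor of progenitors and early adipogenesis, was higher (log2 fold change 1.15 ± 0.15, edgeR adjusted p = 0.000579), while Pparg, the master regulator of fat cells, was lower at 1.56, 1.56 and 3.59 against 6.06, 4.77 and 6.12 (log2 fold change -1.28 ± 0.29, edgeR adjusted p = 0.0131; DESeq2 adjusted p = 0.0506). Of 11 prostaglandin genes, the synthases Ptgs1 (log2 fold change 1.53 ± 0.15, edgeR adjusted p = 0.000129), Ptgs2 (log2 fold change 0.61 ± 0.09, edgeR adjusted p = 0.00106) and Ptgis (log2 fold change 2.65 ± 0.21, edgeR adjusted p = 2.7e-05) were higher and 3 receptors lower. Glycolysis and hypoxia genes were lower in 7 of 20 and higher in 3. Retinoid genes were higher in 3 of 15 and lower in 4, and immediate early and stress genes were higher in 4 of 20 and lower in 1.

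**Figure D4:**
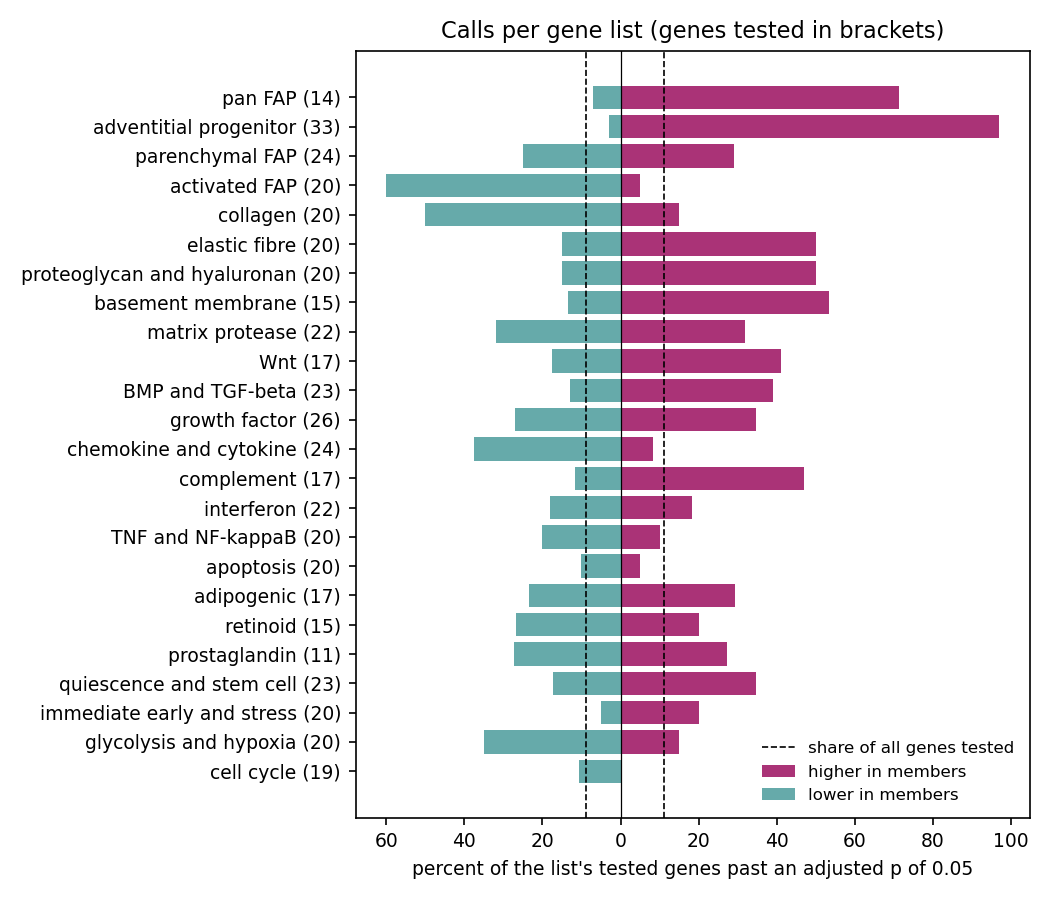
Percent of each list's tested genes (number in brackets) that were higher (right) or lower (left) in Pi16/Dpp4 FAPs (members) than in other Pdgfra-gated cells, at an edgeR adjusted p of 0.05. Dashed lines mark the shares over all genes tested, 11.2 and 8.91%. Lists of other cell types are not drawn. Among the lists drawn, the adventitial one reaches furthest to the right and the activated FAP one furthest to the left.

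The gate was checked against other FAP types. Genes of the Col15a1, Cxcl14, Smoc2, Inmt, Myoc and C7 types gave 7 of 24 higher and 6 lower. Myoc, myocilin, was on the higher side at 468, 811 and 749 CPM against 99.7, 358 and 195 (log2 fold change 1.80 ± 0.16, edgeR adjusted p = 7.19e-05). Vcam1, an adhesion molecule, was lower (log2 fold change -0.98 ± 0.09, edgeR adjusted p = 9.17e-05). Col15a1 and Smoc2 were not called (log2 fold change -0.18 ± 0.09, edgeR adjusted p = 0.207; log2 fold change -0.06 ± 0.08, edgeR adjusted p = 0.647). After thinning to 5000 UMIs, 26.3, 43.9 and 36.9% of the Pi16/Dpp4 FAPs held at least 2 UMIs over Inmt, Myoc and C7, against 7.61, 20.04 and 12.2% of the other cells. For Cxcl10 the shares were 23.7, 32.5 and 26.2% against 39.6, 45.1 and 38.8%. For Crabp1, Il11 and Inhba they were 8.97, 7.55 and 5.15% against 8.85, 15.95 and 17.8%. Without thinning all these shares were higher, for example 40.4, 57.1 and 51.9% against 13.6, 29.8 and 19.1% for the first gate. Cells of the Pi16 and Dpp4 gate thus also passed the other gates.

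Markers of cells other than FAPs were also measured in both classes. The 12 macrophage genes summed to 240.4, 360 and 307 CPM in the Pi16/Dpp4 FAPs and 267, 291 and 284 in the other cells, and 1 of 12 was called, Tyrobp, an adaptor of myeloid cells, which was higher. Of 8 tested mural genes 5 were lower, of 5 tenocyte genes 2, of 4 myogenic genes 2 and of 5 endothelial genes 1, and none of these was higher. T, NK and dendritic genes, listed because such cells can express Dpp4, summed to 1.56, 0.892 and 0.567 CPM, with Cd3e, Xcr1, Clec9a and Flt3 at 0 in all 612 cells. The 8 mesothelial genes summed to 4.15, 4.46 and 8.12, with 1 of 1 tested, the keratin Krt19, higher, and the glial and perineurial genes, of which 2 of 7 were higher and 2 lower, summed to 64.3, 40.6 and 61.2. Of T, NK and dendritic genes 1 could be tested, the T cell receptor gene Trac, which was lower. The part of such RNA in the differences above was not tested.

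The Pi16/Dpp4 FAPs were not uniform in the genes that chose them. In young PBS, old PBS and old rMETRNL, 62, 110 and 69 cells held at least 2 UMIs of Pi16 and none of Dpp4 (Pi16-only), 10, 7 and 21 held at least 2 of Dpp4 and none of Pi16 (Dpp4-only), and 88, 100 and 145 held both. The double-positive share was 55.0, 46.1 and 61.7%. Sema3c stood at 523, 646 and 660.4 CPM in the double-positive cells, 176, 201 and 380.5 in the Dpp4-only cells and 82.2, 128 and 148 in the Pi16-only cells. Cd55 stood at 278, 352 and 367 CPM in the double-positive, 142, 136 and 141 in the Dpp4-only and 37.6, 100.2 and 114 in the Pi16-only cells. Both markers were highest in the double-positive and lowest in the Pi16-only cells of each library. Median depths were 21650.5, 20731.5 and 22046 UMIs in double-positive, 31181.5, 24589 and 30435 in Dpp4-only and 23082, 18296 and 20255 in Pi16-only cells, so that the Dpp4-only cells were the deepest and not those with the highest markers.

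Pi16-only and Dpp4-only cells were then compared in the same kind of test. Of 8204 genes, 162 were higher in Pi16-only cells (1.97%) and 58 in Dpp4-only cells (0.707%). The Dpp4-only sums rest on 38 cells in all. The filter of 10 UMIs in 3 of the 6 sums could be met by the deeper Pi16-only sums alone, so the 2 counts are not set against each other. Without old PBS the counts were 285 and 134, and without old rMETRNL 48 and 12. Sbsn stood at 347, 71.2 and 262 CPM in Dpp4-only and 25.1, 21.0 and 23.0 in Pi16-only cells (log2 fold change -3.16 ± 0.31, edgeR adjusted p = 0.000145, Pi16-only over Dpp4-only). Dmkn stood at 72.3, 64.7 and 101 and 2.09, 0.915 and 1.39, from 25, 10 and 63 UMIs and 3, 2 and 2. It met the filter through the Dpp4-only sums, so neither a fold nor a call is read from it. Wnt2 stood at 72.3, 6.47 and 67.4 and 3.48, 5.95 and 1.39 (log2 fold change -3.68 ± 0.58, edgeR adjusted p = 0.00427). The first 2 were higher in the Dpp4-only cells of every library. Wnt2 was higher there in young PBS and old rMETRNL, while its value in the Dpp4-only cells of old PBS was 1 UMI from 7 cells and gives no direction. Aqp1, a water channel, Rorb, a nuclear receptor, and Rras2, a Ras-like GTPase, were the other 3 of the 6 most raised in Dpp4-only cells, with log2 fold changes of -2.07 to -3.28. Rras2 was no longer called without old rMETRNL (adjusted p = 0.452).

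The 6 genes named as higher in Pi16-only cells had no UMI in any Dpp4-only cell. They passed the filter through the Pi16-only sums and were tested against a count of 0 in 38 cells, so neither a fold nor a call is read from them. Saa3, an acute phase protein, had 169 UMIs from 12 of the 241 Pi16-only cells, and Adamtsl2, a microfibril-binding protein, had 114 from 44. Plekha6, Lsamp, Dio3 and Lif, of which Lif is a cytokine of the interleukin 6 family, came from 55, 44, 27 and 20 of these cells. Col15a1, a basement membrane-associated collagen of the parenchymal list, stood at 206, 366 and 282 CPM in Pi16-only and 34.7, 45.3 and 38.5 in Dpp4-only cells (log2 fold change 2.87 ± 0.22, edgeR adjusted p = 2.16e-05). In the double-positive cells it stood at 31.8, 129 and 73.6. Pi16-only cells were the highest of the 3 kinds in every library.

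Between libraries, the Pi16/Dpp4 FAPs of old PBS were set against those of young PBS, and those of old rMETRNL against those of old PBS. Both ratios share the old PBS library, so each is given on its own and no agreement between them is read. Among genes with at least 50 UMIs, 120 of 9008 were more than 2-fold higher in old PBS than in young PBS (1.33%) and 58 more than 2-fold lower (0.644%). For old rMETRNL over old PBS, 66 of 9405 were higher (0.702%) and 150 lower (1.59%). For old rMETRNL over young PBS, 59 of 9219 were higher (0.64%) and 69 lower (0.748%). In the other Pdgfra-gated cells the higher and lower shares were 1.76% and 1.99% for the first ratio, 0.549% and 0.749% for the second and 0.561% and 0.779% for the third. Ratios below carry exact 95% intervals of the 2 counts, which cover counting error only.

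Genes of parenchymal FAPs, the kind that lies among the fibres, were mostly higher in old PBS. Of 24 on the list, 20 lay above a ratio of 1 for old PBS over young PBS, 8 of them more than 2-fold, and 2 more than 2-fold below, Gdf10 and Rspo3. The median log2 ratio was 0.74 against -0.02 over all genes. Cxcl14, a chemokine, stood at 478, 1598 and 729.7 CPM in young PBS, old PBS and old rMETRNL, ratios of 3.34 (3.18 to 3.52) for old PBS over young PBS and 0.457 (0.439 to 0.475) for old rMETRNL over old PBS. Smoc2, a matricellular protein, stood at 386, 873 and 418, with ratios of 2.26 (2.13 to 2.40) and 0.479 (0.455 to 0.505). Sparcl1, a relative of it, stood at 218, 569.7 and 244, with ratios of 2.61 (2.42 to 2.83) and 0.428 (0.400 to 0.458). In the other cells the ratios for old PBS over young PBS were 2.14 (2.09 to 2.18), 1.81 (1.75 to 1.86) and 1.80 (1.74 to 1.86). Old PBS was the highest library for all 3 genes in the Pi16/Dpp4 FAPs, and its 5 richest cells held 18.9, 11.1 and 13.4% of the UMIs. In young PBS the 5 richest held 41.6, 19.4 and 17.0% and in old rMETRNL 35.1, 20.7 and 26.05%. Hmcn2, a basement membrane hemicentin, stood at 48.0, 155 and 57.2, with ratios of 3.23 (2.74 to 3.82) and 0.370 (0.322 to 0.424). It was also high in the other Pdgfra-gated cells of old PBS, at 14.3, 63.2 and 22.3. Hsd11b1, which activates glucocorticoids, stood at 15.8, 75.6 and 46.1 in the Pi16/Dpp4 FAPs, a ratio of 4.78 (3.63 to 6.39) for old PBS over young PBS, against 1.43 (1.29 to 1.58) in the other cells. For old rMETRNL over old PBS, 18 of the 24 genes lay below 1, 5 of them more than 2-fold, with a median log2 ratio of -0.37 against 0.02 over all genes. For old rMETRNL over young PBS, which does not use old PBS, 18 lay above 1. Of the 24, 3 were more than 2-fold higher and 2 lower, with a median of 0.29 against 0.006 over all genes.

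The share of Pi16-only cells, which are rich in Col15a1, was highest in old PBS, so the ratios were also taken in double-positive cells alone, a choice made after seeing the data. There 18 of 22 parenchymal genes lay above 1 for old PBS over young PBS (median log2 ratio 0.61) and 20 of 23 below 1 for old rMETRNL over old PBS (median -0.38). Cxcl14 had ratios of 5.19 and 0.391 and Smoc2 of 3.41 and 0.478. The adventitial genes behaved otherwise. In all Pi16/Dpp4 FAPs, 29 of 33 lay above 1 for old rMETRNL over old PBS (median log2 ratio 0.34), none more than 2-fold, and for old PBS over young PBS 16 of 32 lay above 1 and 1 more than 2-fold, Il33. In double-positive cells alone 23 of 31 lay above 1 with a median of 0.12, and the ratio of Sema3c was 1.02 there against 1.29 (1.22 to 1.38) in all Pi16/Dpp4 FAPs. For Cd55 the values were 1.04 and 1.22 (1.13 to 1.33).

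**Figure D5:**
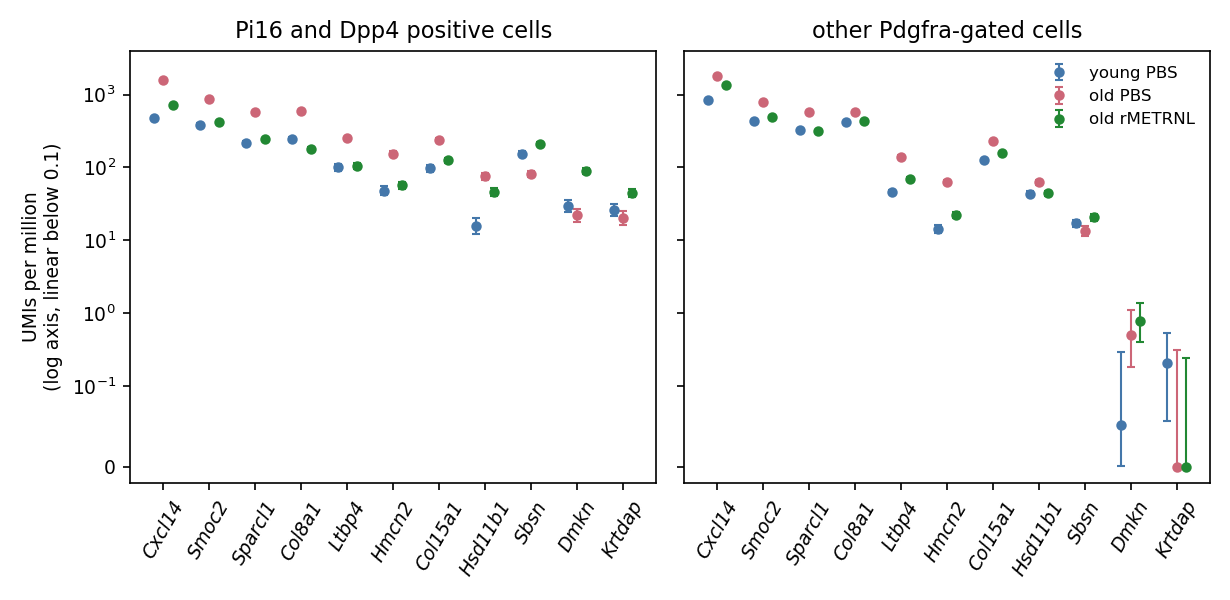
Levels (CPM, y axis, log scale that is linear below 0.1) of 8 genes that were highest in old PBS in Pi16/Dpp4 FAPs, and of the neighbours Sbsn, Dmkn and Krtdap, in the 3 libraries, with exact 95% Poisson intervals. The left panel shows Pi16/Dpp4 FAPs and the right panel the other Pdgfra-gated cells, where Dmkn and Krtdap stay below 1.

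Sbsn, Dmkn and Krtdap were highest in old rMETRNL. Sbsn stood at 155, 81.0 and 213 CPM, a ratio of 2.63 (2.33 to 2.97) for old rMETRNL over old PBS, with UMIs in 78, 80 and 131 of the 160, 217 and 235 cells. Dmkn stood at 29.8, 22.1 and 88.4, a ratio of 4.00 (3.22 to 5.03), and Krtdap at 26.2, 20.3 and 45.0, a ratio of 2.22 (1.73 to 2.85). In double-positive cells alone the ratios were 2.01, 3.07 and 1.65. Dmkn and Krtdap rested on few cells, with UMIs of Dmkn in 25, 22 and 48 and of Krtdap in 20, 23 and 47. Itgb7, Ptgs1, Vegfd and Pdgfd were also more than 2-fold higher in old rMETRNL than in old PBS, at ratios of 3.53 (2.24 to 5.76), 2.14 (1.75 to 2.64), 2.05 (1.72 to 2.44) and 2.34 (1.46 to 3.86). In double-positive cells alone the ratios were 2.82, 1.60, 1.63 and 1.47, so that Itgb7 alone of the 4 stayed past 2-fold. All 4 were also higher in Pi16/Dpp4 FAPs than in the other cells.

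All 19 activated FAP genes with enough UMIs lay below 1 for old rMETRNL over young PBS, 7 of them more than 2-fold. For old rMETRNL over old PBS 15 lay below 1. Over all genes 4519 of 9219 and 4448 of 9405 lay below 1. In double-positive cells alone 16 of 18 and 11 of 18 activated FAP genes lay below 1, against 3478 of 7745 and 3917 of 7842 over all genes, so that for old rMETRNL over old PBS the share there was close to that of all genes. Tnc stood at 205, 212 and 40.8 CPM, a ratio of 0.193 (0.165 to 0.223), against 362, 308 and 285 in the other cells, where the ratio was 0.924 (0.884 to 0.966). The 5 richest cells held 55.4, 56.9 and 55.6% of its UMIs. Postn stood at 3803, 3295 and 1856, a ratio of 0.563 (0.549 to 0.578). Thbs4, a thrombospondin of tendon and muscle, stood at 534, 503 and 167, a ratio of 0.333 (0.308 to 0.360), and Ltbp2 at 63.3, 55.5 and 12.3, a ratio of 0.221 (0.166 to 0.292). In double-positive cells alone the ratios were 0.364, 0.654, 0.540 and 0.403. The summed tenocyte list stood at 751, 703 and 285 in the Pi16/Dpp4 FAPs and at 624, 677 and 496 in the other cells, and its part in these ratios was not tested. Col8a1, a network-forming collagen, stood at 247, 593 and 182, with ratios of 2.40 (2.23 to 2.59) for old PBS over young PBS and 0.307 (0.285 to 0.330) for old rMETRNL over old PBS. These were 2.08 and 0.476 in double-positive cells alone. Ltbp4, a latent TGF-beta binding protein, stood at 101, 250.3 and 105, with ratios of 2.49 (2.21 to 2.80) and 0.421 (0.379 to 0.466).

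Mest, Ptn, Sfrp2 and Col6a5 were highest in young PBS. Mest, an imprinted gene of growing tissue, stood at 197, 62.5 and 47.8 CPM, a ratio of 0.317 (0.275 to 0.363) for old PBS over young PBS, against 0.354 (0.335 to 0.374) in the other cells. In double-positive cells alone the ratio of Mest turned to 1.40. Ptn stood at 188, 53.1 and 87.1, a ratio of 0.282 (0.243 to 0.327), and Sfrp2 at 529, 158 and 360.5, a ratio of 0.300 (0.275 to 0.326). The ratios of Ptn and Sfrp2 were 0.528 and 0.284 in double-positive cells alone, so that Ptn was no longer past 2-fold. Col6a5, a beaded filament collagen chain, stood at 42.5, 4.24 and 3.59, a ratio of 0.0997 (0.0585 to 0.161), against 1.31, 2.18 and 0.658 in the other cells, but the 5 richest of the 24 cells with a UMI held 72.6% of the young UMIs. Nrk, a kinase, Ism1, a secreted angiogenesis inhibitor, Fbn2, a microfibril protein, Ndnf, a secreted neurite factor, and Ddit4l, a stress response gene, were likewise among the 8 lowest for old PBS over young PBS, at ratios of 0.123 to 0.222. The 5 richest young cells held 37.1, 33.3, 47.4, 64.5 and 83.9% of their UMIs, and 1 cell held 33 of the 62 of Ddit4l. Fbn2 was as much lower in the other cells, at 0.209, whereas the ratio of Ism1 there was 1.23.

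Several of the most extreme ratios came from a handful of cells. Csf2, a myeloid growth factor, stood at 15.6, 1.34 and 7.18 CPM from 3, 3 and 4 cells. Saa3 stood at 15.3, 2.90 and 29.5 from 5, 5 and 10 cells, Ccl5, a chemokine for T cells and monocytes, at 16.3, 61.8 and 6.80 from 4, 10 and 13, and Rgs5, a pericyte gene, at 1.3, 21.0 and 3.21 from 5, 12 and 8. Cxcl13, a chemokine for B cells, stood at 1.3, 20.5 and 23.1 from 4, 16 and 29 cells, with ratios of 15.8 (6.54 to 49.9) for old PBS over young PBS and 1.12 (0.850 to 1.49) for old rMETRNL over old PBS. Nppc, a natriuretic peptide, stood at 2.59, 23.4 and 6.42 from 3, 21 and 9 cells. Hp, haptoglobin, stood at 86.9, 36.1 and 178 from 38, 33 and 66 cells, with a ratio of 4.93 (4.16 to 5.86) for old rMETRNL over old PBS, and its 5 richest cells held 75.8, 54.9 and 34.9% of the UMIs. C1qtnf3, a secreted C1q-like protein, stood at 67.4, 118 and 14.5 from 56, 60 and 27 cells, with a ratio of 0.124 (0.0961 to 0.157), and its 5 richest cells held 56.2, 39.1 and 58.4%. Slc16a3, a lactate exporter, and Zfand1 had ratios of 3.48 (2.06 to 6.2) and 2.89 (1.66 to 5.29), and that of Slc16a3 was 3.59 in the other cells.

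Muscle fibre transcripts were higher in old PBS in both classes of cells. Acta1, skeletal actin, stood at 7.0, 59.3 and 9.45 CPM in the Pi16/Dpp4 FAPs and 5.90, 85.1 and 12.6 in the other cells. Ckm, muscle creatine kinase, stood at 2.33, 32.6 and 2.83 and 0.836, 33.8 and 3.23. Pvalb, Tnnc2, Myl1 and Myh4, further fibre genes, made up the rest of this group, with Myh4 at 0 in young PBS. A single Pi16/Dpp4 FAP of old PBS held 160 of the 266 Acta1 UMIs and 107 of the 146 Ckm UMIs there. Without the cell richest in these 6 genes in each library, a choice made after seeing the data, Acta1 stood at 4.70, 23.8 and 8.72 CPM and Ckm at 1.3, 8.75 and 2.28. Old PBS remained the highest for both. The 10 myogenic markers, Acta1 among them, summed to 26.4, 89.7 and 27.2 in the Pi16/Dpp4 FAPs and 45.2, 131 and 56.5 in the other cells. The macrophage genes, given above, also summed highest in old PBS, and all 9 with enough UMIs lay above 1 for old PBS over young PBS. Their part in the other ratios was not tested.

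TNF and apoptosis genes were examined because the study asked whether macrophage TNF acts on FAPs. None of the 19 TNF and NF-kappaB genes measured was more than 2-fold apart in either ratio, with median log2 ratios of 0.16 for old PBS over young PBS and -0.30 for old rMETRNL over old PBS. None of 16 and 17 apoptosis genes was either, with medians of 0.07 and -0.26. Over all genes 1.33% were more than 2-fold higher and 0.644% lower in the first ratio, and 0.702 and 1.59% in the second. Having none in lists of this size is therefore not read as a result about them. For old PBS over young PBS, 14 of 15 basement membrane genes, 13 of 14 complement genes and 3 of 19 glycolysis and hypoxia genes lay above 1. For old rMETRNL over young PBS, which does not use the old PBS library, 12, 8 and 6 did. For old rMETRNL over old PBS 2, 3 and 15 did, a ratio that shares old PBS with the first, so its direction is not independent of the first. Over all genes, 4276 of 9008 lay above 1 for old PBS over young PBS, 4700 of 9219 for old rMETRNL over young PBS and 4957 of 9405 for old rMETRNL over old PBS. The pattern was not particular to the Pi16/Dpp4 FAPs. In the other cells basement membrane genes summed to 2740, 4104 and 3090 CPM and complement genes to 2651, 3368 and 2877, both highest in old PBS. Glycolysis and hypoxia genes summed to 3581, 3307 and 3980 there, lowest in old PBS. The general FAP genes, which rose in 10 of 14 and fell in 1 of 14 against the other cells, had no gene past 2-fold in either ratio. Metrnl had ratios of 0.904 (0.805 to 1.02) and 1.32 (1.19 to 1.46), and the second was 1.14 in double-positive cells alone. Col1a1 stood at 12206, 9349 and 8680.3 CPM in the 3 libraries, its ratios being 0.766 (0.756 to 0.776) and 0.928 (0.916 to 0.941). Ly6a stood at 2391, 1928 and 2936, with ratios of 0.807 (0.783 to 0.831) and 1.52 (1.48 to 1.56), and was lowest in old PBS in both classes of cells.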

How the data were processed

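Single-cell RNA was measured in 3 libraries (10x Chromium, 1 per group, each pooled from 3 muscle samples). The authors deposited raw UMI counts per gene and barcode. The file headers name Cell Ranger 5.0.0, the submitters' processing notes also 3.1.0, and the study's methods another version. The genome build was mm10, and the annotation release is not given in the sources used here. Every file column was assigned to a library. Groups were taken from the labels.

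Cells were chosen with the limits given above, on genes of 32285 features. Counts were summed per library and cell class and tested in edgeR 4.0.16 (R 4.3.3, TMM scaling, quasi-likelihood test, Benjamini-Hochberg adjustment at 0.05) with the library as a block, which leaves 2 residual degrees of freedom. Genes needed 10 UMIs in 3 of 6 sums, and the 12 genes of the gate were left out of the counts. The fit was tested on simulated sums with known changes. Between libraries, genes needed 50 UMIs, and a ratio past 2-fold was counted. Levels are CPM of the summed UMIs. Intervals are exact, at 95%, and cover counting error only, and a floor is 3 counts. Thinning was to 5000 UMIs. Python 3.11.15, scipy 1.17.1 and scanpy 1.11.5 were used.

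No doublet caller was applied to the main values, only the lineage gate. Scrublet's own threshold called 0 barcodes in each library, so as an alternative the highest scores were called at 0.8% per 1000 barcodes. Library totals were 218059089, 179295668 and 228966697 UMIs. The libraries shared 80, 58 and 76 barcodes, which were kept apart by library.

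The cells, the 33 gene lists and the comparisons were chosen with earlier results of these data known. Genes were named as the 15 highest and 10 lowest fold changes against the other cells (called, same direction in 3 libraries, 100 UMIs), the 6 at either end between Pi16-only and Dpp4-only cells (50 UMIs), the 8 at either end of each ratio between libraries, genes of the lists, and Metrnl. Sex-linked genes, 1 of the lists, were left out. Alternatives changed the scaling, the tool (DESeq2 1.42.0), the count filter, the gate, the depth range, the doublets, the cell filter and the libraries. Coordinates are GENCODE M21, matched by gene identifier.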

Additional observations from a re-analysis of the deposited data

Results flagged for a closer look

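The limit on cell cycle genes kept dividing cells out of every comparison, and some of them also carried Pi16 and Dpp4. At least 2 UMIs of the pair were held by 6.38% of the cycling Pdgfra-gated cells of young PBS (9 of 141), 13.8% of those of old PBS (11 of 80) and 19.0% of those of old rMETRNL (31 of 163), against 0.290, 0 and 0.325% of cells gated as muscle stem cells. They are given here as a signal outside the cells compared. The exact 95% intervals were 2.96 to 11.8%, 7.07 to 23.3% and 13.3 to 25.9%, so that those of young PBS and old rMETRNL did not overlap. Cycling cells are deep, with median depths of 34172 to 37959 UMIs in those that held the pair and 37690 to 42020.5 in those that did not.

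Their marker levels lay above those of the cycling cells without the pair. Sema3c stood at 312, 173 and 406 CPM in the cycling cells that held the pair and at 6.55, 10.8 and 12.7 in those that did not. Cd55 stood at 238, 114 and 269 against 4.19, 12.7 and 8.48, and Igfbp5 at 864, 735 and 574 against 51.9, 54.3 and 207. With 1 library per group the difference in these shares between groups was not tested.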

How the results depend on the processing

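No paired analysis was possible between groups because each group had 1 library. The pairing within libraries is the library block of the tests. Without that block, 774 genes were higher and 392 lower in Pi16/Dpp4 FAPs than in the other cells, and 88 and 47 were higher in Pi16-only and Dpp4-only cells. In the first comparison 12 genes named above were no longer called without it (edgeR adjusted p of 0.0564 to 0.673). They were Ptn, Cthrc1, Sfrp2, Tgfb3, Ccl11, Cdkn1a, Col12a1, Cdkn2a, Tnc, Il33, Csf3 and Ccl20. DESeq2 called 798 and 444 genes in the first comparison and 81 and 20 in the second. Leaving out 1 library at a time gave 680 to 1213 and 421 to 890 genes, and 48 to 285 and 12 to 134, with fewer genes tested, the lowest each time without old rMETRNL. With cycling cells among the other cells 1876 genes were lower. Without the count filter 374 and 117 genes were called between Pi16-only and Dpp4-only cells. With a minimum of 200 UMIs the genes past 2-fold numbered 34 and 9 for old PBS over young PBS, 12 and 46 for old rMETRNL over old PBS, and 9 and 19 for old rMETRNL over young PBS. In double-positive cells, added after seeing the data, they numbered 114 and 54, 41 and 83, and 73 and 48 for the same ratios. For old rMETRNL over young PBS more genes were thus higher than lower there, against 59 and 69 in all Pi16/Dpp4 FAPs. Among the alternatives for the share, the one with both genes moved the ratio of old rMETRNL over old PBS to 1.26, and it was 1.06 with at least 4 UMIs of the pair and 1.11 with thinned cells. Of the ratios named whose counting interval lay on one side of 1, those that crossed 1 were, for old PBS over young PBS, Sema3c at 0.925 and Dmkn at 1.53 in cells of 10000 to 30000 UMIs, Dmkn at 1.10 as a mean over cells and Mest at 1.40 in double-positive cells. Mest was 1.58 for old rMETRNL over old PBS at 10000 to 30000 UMIs. Metrnl was 0.995 for old rMETRNL over young PBS in cells with at least 4 UMIs of the pair and 1.0 in double-positive cells. Ratios whose interval spanned 1 also crossed it, such as Krtdap at 1.14 and Tnc at 0.700 for old PBS over young PBS in double-positive cells. The cause of these changes was not tested.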
